A study of Mus musculus with 6 samples.

Results

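The genes described here encode the HSP70, HSP90 and DNAJ chaperones and the mitochondrial chaperonins of the mouse. They are the genes whose single symbol in the array annotation begins with Hspa, Hsph, Hsp90, Hspd, Hspe, Dnaja, Dnajb or Dnajc followed by a number or letter, and they were taken by name, not by any measured value. This gave 62 of the 18193 genes and 155 of the 45037 probe sets measured. A probe set is a group of short array probes read as 1 value. The HSPA and HSPH family held 14 genes, HSP90 held 2, the HSPD and HSPE pair 2, DNAJA 4, DNAJB 13 and DNAJC 27. Hsp90ab1, the constitutive cytosolic HSP90, and Dnajc19, a J protein of the mitochondrial inner membrane, were not analysed here because no probe set carried their symbol alone.

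RNA came from C2C12, a line of mouse myoblasts that can leave the cell cycle in suspension and fuse into myotubes when it differentiates. In the control group (labelled GFP S48) the cells had been transfected with a GFP shRNA, and in the knockdown group (PRDM2 KD S48) with one directed at PRDM2, a nuclear zinc finger protein of the PRDM family. Both groups were stable pools and had been held for 48 hours in methylcellulose suspension medium with 20% fetal calf serum, which the labels describe as G0. Each group had 3 arrays, labelled biological replicates. Nothing in the labels says that they came from separate transfections, so p-values measure the spread between these samples. The comparison asks which transcripts differ between arrested myoblasts with and without the PRDM2 shRNA.

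HSP70 proteins bind exposed hydrophobic stretches of unfolded proteins and release them in cycles of ATP binding and hydrolysis. J proteins, the DNAJ families, deliver clients to HSP70 and stimulate its ATPase. Members of the HSPH group act as nucleotide exchange factors, and HSP90 takes over clients such as kinases and steroid receptors that are near their native state. In muscle, HSP70 and HSP90 help to fold myosin and to clear damaged sarcomere proteins. Heat shock factors switch on the inducible genes through repeats of the unit GAA and its complement. The unfolded protein response of the endoplasmic reticulum (ER) acts on its own chaperones through a different element.

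RefSeq promoter windows of the GRCm38.p6 assembly, from 250 bases before to 50 bases after a transcript start, were matched by symbol for 50 of the 62 genes. Both strands were searched for the heat shock element (GAA, any 2 bases, TTC, any 2 bases and GAA, or the same with TTC and GAA exchanged), for its shorter part GAANNTTC, which the longer element contains, and for the ER stress element (CCAAT, any 9 bases and CCACG). The heat shock element was found in 4 of the 50 genes (8%), Dnajb6, Hspd1, Hspe1 and Hsph1, and in 0.662% of all 27025 genes with a window. In Hsph1 it lay after the transcript start, at base 16 from one start and 37 from another. In the other genes it lay before the start. GAANNTTC was in 10 of 50 (20%), with Dnaja1, Dnaja4, Dnajc27, Dnajc5g, Hspa1a and Hspa1b added, and in 9.04% of all genes. The ER stress element was in 3 of 50 (6%), Dnajc3, Hsp90b1 and Hspa5, and in 0.137% of all genes. A match is a description of these letters and shows neither binding nor a cause. The 250 bases before the start follow for 5 genes described later, because they carry one or the other element, written 5′ to 3′ along the gene's strand with the matches in capitals.

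Hspe1, chr1:55087898-55088147, plus strand: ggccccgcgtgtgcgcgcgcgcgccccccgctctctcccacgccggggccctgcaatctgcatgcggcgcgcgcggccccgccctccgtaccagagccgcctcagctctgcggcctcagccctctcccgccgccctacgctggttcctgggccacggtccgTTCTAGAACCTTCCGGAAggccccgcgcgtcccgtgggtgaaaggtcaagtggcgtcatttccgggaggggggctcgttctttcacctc
Hspa1b, chr17:34959239-34959488, minus strand: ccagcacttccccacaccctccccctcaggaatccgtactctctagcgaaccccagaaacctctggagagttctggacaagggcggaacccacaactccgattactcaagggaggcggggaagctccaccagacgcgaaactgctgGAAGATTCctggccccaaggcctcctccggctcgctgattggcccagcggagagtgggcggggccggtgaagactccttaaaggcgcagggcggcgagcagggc
Hspa5, chr2:34771840-34772089, plus strand: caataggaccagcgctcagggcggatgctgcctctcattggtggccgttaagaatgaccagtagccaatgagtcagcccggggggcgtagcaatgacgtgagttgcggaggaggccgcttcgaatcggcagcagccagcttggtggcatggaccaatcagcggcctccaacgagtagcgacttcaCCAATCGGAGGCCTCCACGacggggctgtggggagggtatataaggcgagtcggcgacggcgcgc
Hsp90b1, chr10:86705445-86705694, minus strand: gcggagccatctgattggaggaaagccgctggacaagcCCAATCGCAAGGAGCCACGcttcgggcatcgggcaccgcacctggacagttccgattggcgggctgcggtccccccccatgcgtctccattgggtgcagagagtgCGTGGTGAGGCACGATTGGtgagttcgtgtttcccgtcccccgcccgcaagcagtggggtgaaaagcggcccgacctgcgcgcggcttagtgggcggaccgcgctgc
Dnajc3, chr14:118937682-118937931, plus strand: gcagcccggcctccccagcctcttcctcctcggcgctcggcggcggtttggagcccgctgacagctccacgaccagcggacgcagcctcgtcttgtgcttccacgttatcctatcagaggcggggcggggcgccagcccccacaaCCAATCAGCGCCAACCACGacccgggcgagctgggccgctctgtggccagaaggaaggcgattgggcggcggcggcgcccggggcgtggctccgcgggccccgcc

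The capitals of Hspe1 mark an 18-base run that holds overlapping heat shock units. The same run, read on the opposite strand, lies before one of the 2 starts of Hspd1, and the 2 chaperonin genes are divergent neighbours. By these exact patterns Hspa1b shows only the shorter GAANNTTC, and heat shock elements with a mismatched unit were not searched for. Its window differs from that of Hspa1a, the other inducible HSP70 gene, at 3 of 250 bases. Hspa5 and Dnajc3 each hold 1 ER stress element, and Hsp90b1 holds 2, the second of them on the other strand.

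Of the 62 chaperone genes, 1 differed between the groups at an adjusted p under 0.05, and it was higher in the knockdown cells. This was Dnajc13, the J protein RME-8 that works with the cytosolic HSP70 on endosomes. None was lower. The 1 gene is 1.61% of the members, against 5.16% of all genes (2.96% higher and 2.19% lower). Tests were made with limma on log2(intensity + 16) after quantile normalization, and p-values were adjusted over all 18193 genes by the Benjamini-Hochberg method. At an unadjusted p under 0.05 there were 10 members, 6 higher and 4 lower, against 15.8% of all genes. The share of members was below that of all genes at the adjusted threshold and close to it at the unadjusted one. Among genes with a mean of at least 16 in at least 1 group, 1.92% of 52 members and 8.26% of 10954 genes passed. At an unadjusted p under 0.05 there were 10 of these members and 2580 of these genes. The shares of all genes, 5.16% and 15.8%, are also the background for the counts of families and lists given below.

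The log2 differences of the members, knockdown minus control, ran from -0.48 for Hspa2 to 0.73 for Dnajc13, with a median of 0.03 and quartiles of -0.13 and 0.21. Over all genes the median was -0.0040. In 59 of the 62 the difference was under 0.5 in size (95.2%, against 89.2% of all genes), and in all 62 it was under 1. The 95% interval lay within 1 log2 unit of zero for 57 members, so for these a 2-fold difference on this scale lies outside the interval. The other 5 were Dnajc13, Dnajc14, Dnajc17, Dnajb14 and Hspa12a. Because 16 was added to every intensity, differences of dim genes are understated. In 10 members both group means were under 16: Dnajb3, Dnajb7, Dnajb8, Dnajb13, Dnajc5b, Dnajc5g, Dnajc6, Dnajc28, Hspa1l and Hspa12b. Among the 52 others the median size of the difference was 0.19, against 0.22 over the 10954 genes of that level. The size was under 0.5 in 94.2% of the 52, against 82.6% of the 10954.

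**Figure D1:**
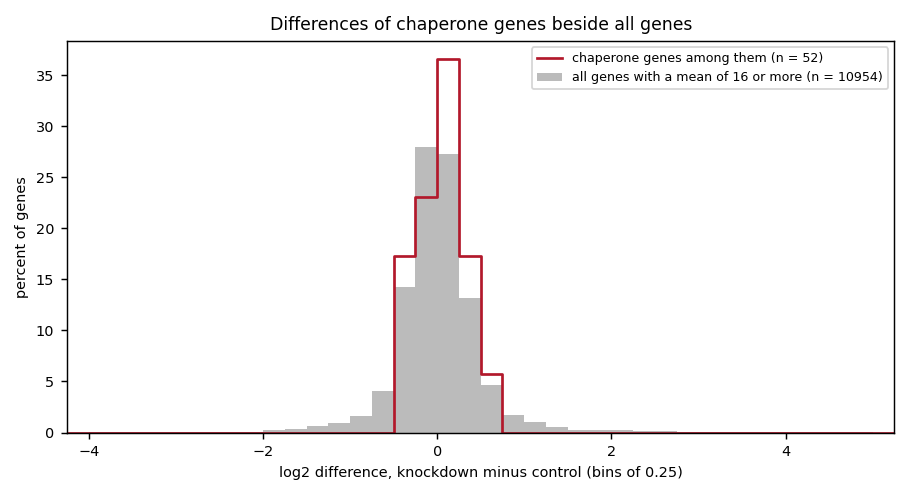
Log2 differences, knockdown minus control, of the 52 chaperone genes with a mean of at least 16 in at least 1 group (red line) and of all 10954 genes of that level (grey bars), as a percent of each set in bins of 0.25. The chaperone genes lie between -0.48 and 0.73, while the full set of genes extends far beyond on both sides.

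Several facts about the arrays and cultures stand beside these values. Prdm2 itself, by the brightest of its 3 probe sets, read 86.2, 73.6 and 47.1 on control arrays 1, 2 and 3. On knockdown arrays 1, 2 and 3 it read 58.0, 51.5 and 29.0, a log2 difference of -0.51 that did not pass (limma adjusted p = 0.313). Values of its other probe sets are not given here. All 8 differentiated muscle markers tested rose, from a summed intensity of 158 to 353 in the controls to 6923 to 8796 in the knockdown arrays. All 5 cycling cell markers fell, from a sum of 570 to 860 to one of 61.8 to 97.6. Of the 4 myoblast markers Myf5 fell, and their sum was 1247 to 1517 in control and 1045 to 1368 in knockdown arrays. None of the 5 macrophage markers (sums of 129 to 251 and 81.4 to 130) or of the 5 endothelial markers (45.0 to 92.1 and 43.1 to 71.7) passed; 1 macrophage marker and 0 endothelial markers had an unadjusted p under 0.05. Among 4 adipocyte markers Retn rose (sums of 18.0 to 49.3 and 108 to 310), among 5 neuron markers Tubb3 fell (72.0 to 93.0 and 35.2 to 47.8), and among 5 epithelial markers Epcam rose (44.0 to 58.7 and 78.4 to 101). No marker was at 0 on every array, which does not show that its cell type was present. Both group means were under 16 for 2 of the 5 macrophage and 4 of the 5 endothelial markers. The same held for 3 of the 4 adipocyte, 4 of the 5 neuron and 4 of the 5 epithelial markers. A change in the mix of cells and a change in RNA per cell cannot be told apart in bulk RNA, and the part of either in the chaperone values was not tested. Arrays numbered 3 had a Dap spike signal of 41.5 in the control and 40.5 in the knockdown group, against 143 to 302 on the other 4 arrays. Control array 3 also had a Gapdh 5′ to 3′ ratio of 0.0992, against 0.704 to 1.14 elsewhere. Its beta-actin 5′ to 3′ ratio was 0.114, against 0.299 to 0.723 elsewhere. Knockdown array 3 had ratios of 0.934 and 0.549.

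The Dnajc13 intensity was 111, 137 and 80.2 on the 3 control arrays and 199, 201 and 206 on the 3 knockdown arrays. The groups did not overlap, and the knockdown arrays lay close together. Means were 109 ± 28.4 and 202 ± 3.68 (SD, n = 3), and the log2 difference was 0.73 (SE 0.13, 95% interval 0.42 to 1.05, limma adjusted p = 0.0265), or 1.66-fold on the offset scale. Among arrays 1 and 2 it was 0.61 and between the 2 arrays numbered 3 it was 0.98. A second Dnajc13 probe set was near the background, at 12.7 ± 10.9 in control and 8.36 ± 4.67 in knockdown arrays, with a difference of -0.16. Leaving out control array 1 or 3, or knockdown array 1, 2 or 3, each ended the call (adjusted p 0.055 to 0.102), as did 4 other settings given in the closing section. With the mean of both probe sets, the difference was 0.29 and the adjusted p was 0.563.

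**Figure D2:**
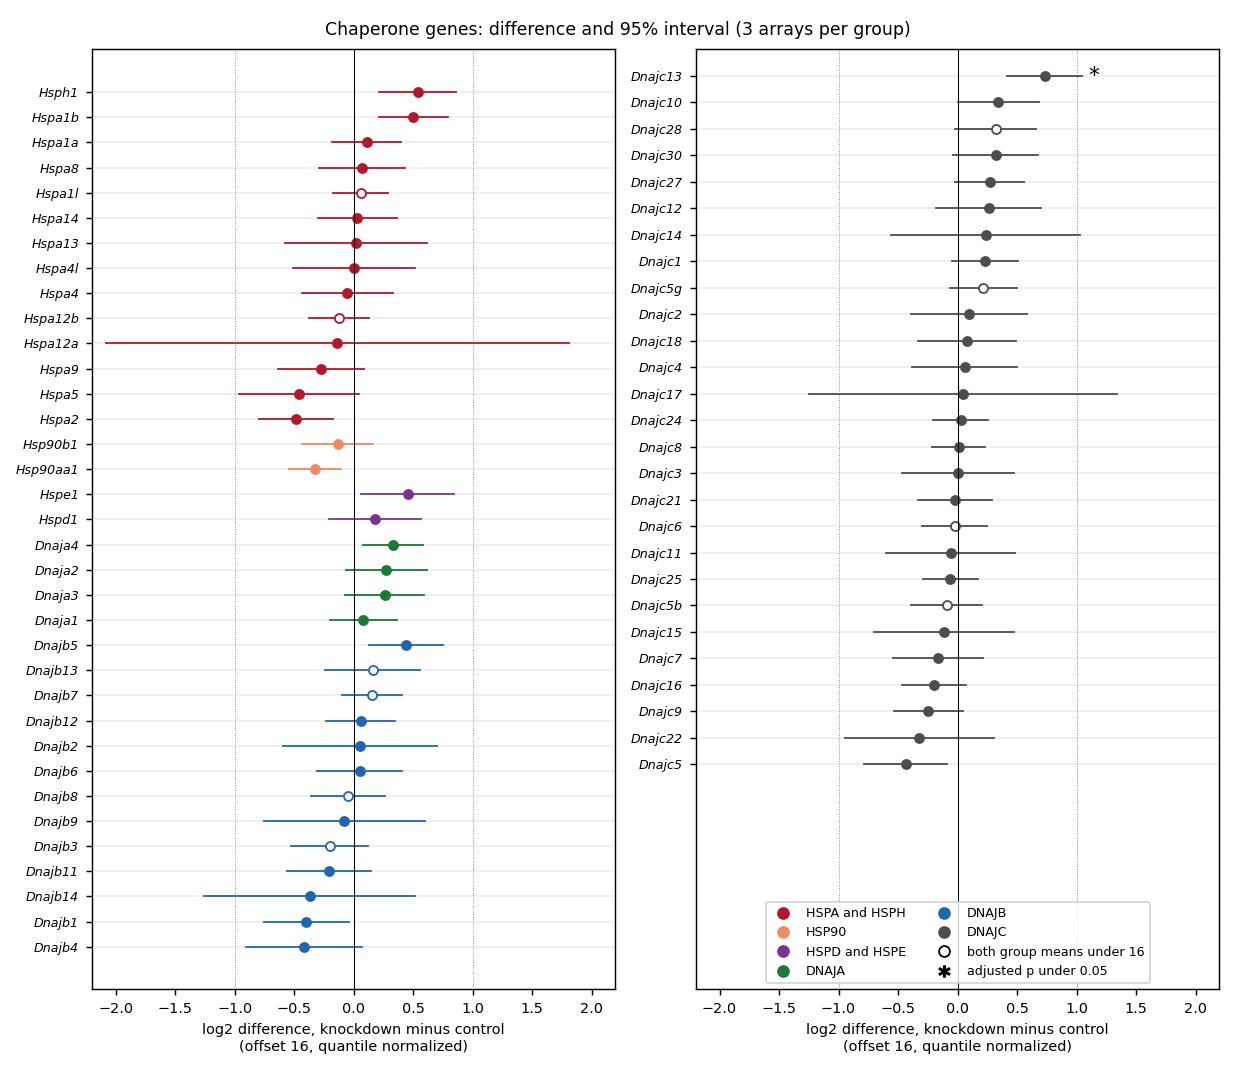
Log2 difference between knockdown and control (x axis, 3 arrays per group) with its 95% interval for each of the 62 chaperone genes, coloured by family; open circles mark the 10 genes with both group means under 16, and the star an adjusted p under 0.05. Only Dnajc13 carries a star, and the points lie between -0.48 and 0.73.

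When every probe set was tested on its own, 2 of the 155 passed, both higher: that of Dnajc13 and 1 of the 3 of Dnajc10. This is 1.29% of the member probe sets, against 2.43% of all 45037 (1.42% higher and 1.01% lower). At an unadjusted p under 0.05 there were 19, against 11.7% of all. Normalized values of the groups did not overlap in 24 of 155 (17 higher and 7 lower, 15.5%), against 16.9% of all probe sets (9.03% higher and 7.86% lower).

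Dnajc10 encodes ERdj5, a J protein with disulfide reductase activity that prepares misfolded ER proteins for degradation. Its passing probe set read 242, 269 and 184 in the controls and 366, 438 and 436 in the knockdown arrays. All 3 knockdown arrays were above all 3 controls, and the log2 difference was 0.73 (SE 0.12, adjusted p over all probe sets = 0.0378). A second probe set gave a difference of 0.74, from 105 ± 20.8 to 201 ± 45.7, with an adjusted p of 0.118. The brightest probe set, which represents the gene, read 422, 395 and 262 in control and 505, 531 and 406 in knockdown arrays, and these ranges overlapped. Its difference was 0.34 (adjusted p over genes = 0.317). With the mean of the 3 probe sets as the gene's value, Dnajc10 passed, with a difference of 0.60 and an adjusted p of 0.0254. The call of the single probe set was lost without normalization, with an offset of 1 or 64, with the variance trend, with the replicate or spike block, in the 4 arrays of higher spike signal and whichever of the 6 arrays was left out.

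In 8 members the normalized values of the knockdown arrays all lay above the controls and in 6 below them. The 14 are 22.6% of the members, against 20.6% of all genes (11% higher and 9.5% lower), so the share is near the background. Those higher were Dnajc13, Hspa1b, Hsph1, Hspe1, Dnaja4, Dnajb5, Dnajc1 and Dnajc5g. Those lower were Hsp90aa1, Hspa2, Dnajb1, Dnajc5, Dnajc9 and Dnajc16. The plot of 12 genes shows the deposited intensities, in which the groups of Hspe1, Hsp90aa1, Dnajb1 and Dnajc5 do overlap.

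**Figure D3:**
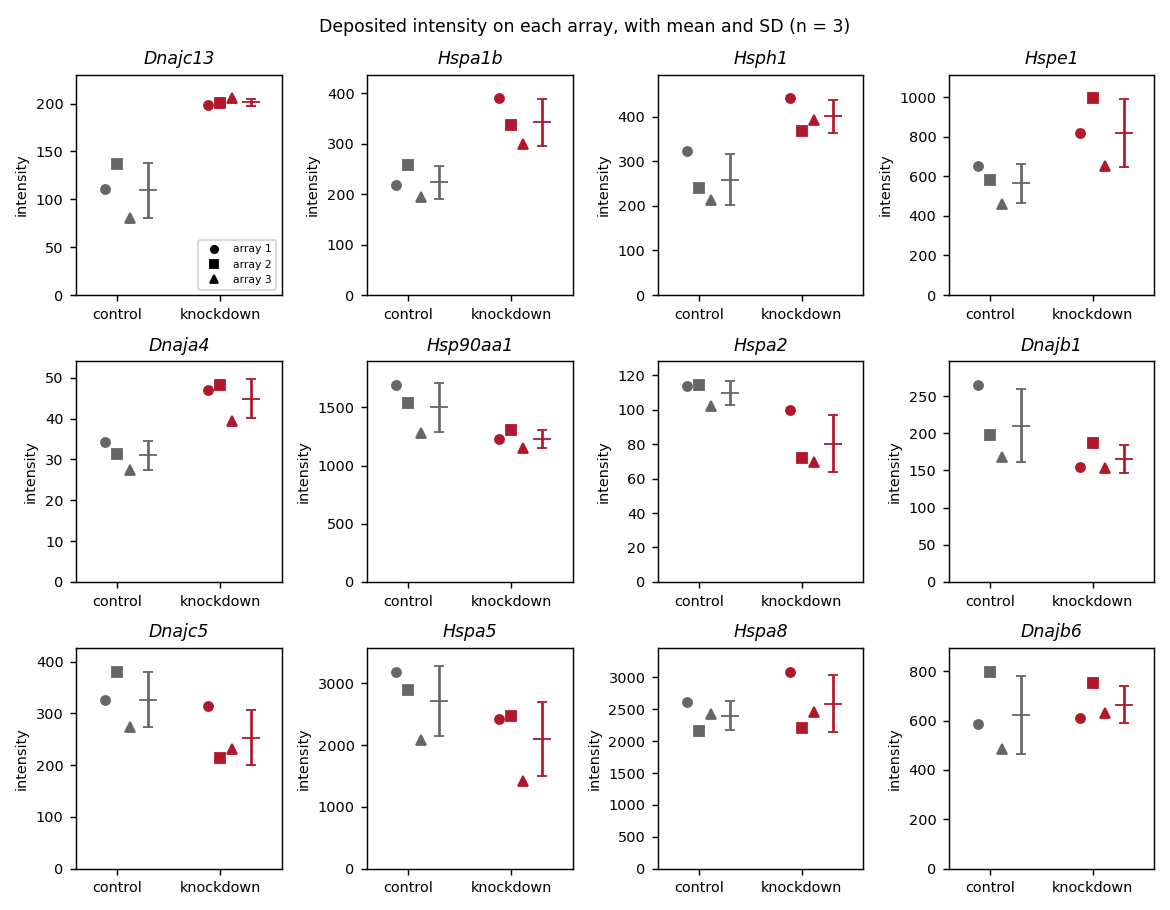
Deposited intensity (y axis, linear from 0) of 12 chaperone genes on each of the 3 control arrays (grey) and 3 knockdown arrays (red), with the array number as the symbol and the group mean and SD beside the points. For Dnajc13 the knockdown arrays read 199 to 206 and the controls 80.2 to 137, whereas for Hspa8 and Dnajb6 the 2 groups overlap.

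After Dnajc13 the genes with the lowest adjusted p were Hspa1b, Hsph1 and Hspa2, while Hspa1a, Hspa8 and other HSP70 genes were far from the threshold. Hspa1b, a stress-inducible HSP70, read 217, 258 and 194 in the controls and 390, 337 and 299 in the knockdown arrays. Every knockdown array was above every control, with means of 223 ± 32.2 and 342 ± 45.8 (SD, n = 3) and a log2 difference of 0.50 (95% interval 0.21 to 0.79, adjusted p = 0.0781). Its other 2 probe sets gave 0.62 and 0.71 and also did not pass over all probe sets (adjusted p = 0.0683 and 0.271). Hspa1b passed with the mean of its probe sets (adjusted p = 0.0458) and with array weights (0.0139). The probe set of Hspa1a was dim, at 20.2, 20.8 and 13.1 against 23.4, 20.8 and 16.6, and its difference was 0.11 (adjusted p = 0.792). The 2 genes have nearly identical coding sequences, and whether their probe sets tell them apart was not tested.

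Hsph1 encodes HSP110, an exchange factor for HSP70. It read 323, 239 and 213 in the controls and 442, 369 and 393 in the knockdown arrays, without overlap. The log2 difference was 0.54 (95% interval 0.21 to 0.86, adjusted p = 0.0859), and a second, dimmer probe set gave 0.81 with an adjusted p of 0.545. Hspa4, another HSP110 relative, gave different readings by probe set. The probe set that represents it had a difference of -0.05, with means of 399 ± 44.6 and 406 ± 37.2. A second read 213, 225 and 199 against 465, 324 and 324, a difference of 0.66 (adjusted p over probe sets = 0.0962), and another gave 0.74 (0.146). With array weights 1 Hspa4 probe set passed, and with spike level as a block 1 did. These 2 probe sets did not overlap between the groups while the brightest did. Hspa4l, also of this subgroup, had a difference of 0.0034.

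Hspa8, the constitutive HSP70 that also uncoats clathrin vesicles, read 2611, 2159 and 2428 in the controls and 3085, 2213 and 2460 in the knockdown arrays. The groups overlapped, with a difference of 0.07 (95% interval -0.29 to 0.43, adjusted p = 0.910). All 4 Hspa8 probe sets were positive, from 0.07 for this brightest one to 0.53 for another, and none passed over all probe sets. Without control array 2 or knockdown array 1 the sign of the brightest one turned, to -0.03 in both cases. Hspa2, an HSP70 best known from the testis, had the most negative difference of the members. It read 114, 114 and 102 in the controls and 99.6, 71.9 and 69.6 in the knockdown arrays, with no overlap and a difference of -0.48 (95% interval -0.79 to -0.17, adjusted p = 0.107). Hspa12a, a distant relative, was bright on array 3 of both groups by the probe set that represents it. It read 53.5, 49.4 and 230 in control and 32.1, 53.1 and 274 in knockdown arrays, the same 2 arrays that had the low spike signal, and whether the 2 are linked was not tested. Across the HSPA and HSPH family, 0 of 14 genes passed and 3 had an unadjusted p under 0.05, against 15.8% of all genes. The median difference was 0.01.

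Both HSP90 genes measured had negative differences and neither passed, and 1 of them had an unadjusted p under 0.05. Hsp90aa1, the stress-inducible cytosolic HSP90, read 1692, 1535 and 1278 in the controls and 1229, 1301 and 1147 in the knockdown arrays. The highest knockdown array was just above the lowest control, and after normalization the groups no longer overlapped. The log2 difference was -0.32 (95% interval -0.54 to -0.10, adjusted p = 0.125). The other 4 probe sets of Hsp90aa1 were also negative, at -0.90, -0.46, -0.36 and -0.15. Hsp90aa1 passed with an offset of 64 (adjusted p = 0.0353) and with array weights (0.0259). Hsp90b1 is GRP94, the HSP90 of the ER. It had means of 1965 ± 178 and 1880.3 ± 243 and a difference of -0.13 (95% interval -0.43 to 0.16, adjusted p = 0.735).

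A list drawn up for heat-inducible cytosolic members also held Hspa8, which is constitutive, and Hspa1l, with both means under 16. Of the 10 genes of this list that were measured 0 passed, against 5.16% of all genes. Among them 4 had an unadjusted p under 0.05, against 15.8%. These 4 went both ways. Over the whole list, with Hspa8 and Hspa1l, differences were positive in 7 and negative in 3, and the median was 0.07. Hspa1b and Hsph1 were on the positive side and Hsp90aa1 and Dnajb1 on the negative side. Dnajb1, the J protein HSP40 that partners the inducible HSP70, read 265, 198 and 168 in the controls and 155, 187 and 153 in the knockdown arrays. Its difference was -0.40 (95% interval -0.76 to -0.04, adjusted p = 0.255), and that of its second probe set was -0.22. With array weights it passed (adjusted p = 0.0389). Of the 4 genes with the full heat shock element in the window, Hsph1 had a difference of 0.54, Hspe1 of 0.45, Hspd1 of 0.18 and Dnajb6 of 0.05, and none passed.

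The chaperonins Hspe1 (HSP10) and Hspd1 (HSP60), which form the folding chamber of the mitochondrial matrix, share the 18-base run shown above. Hspe1 read 652, 581 and 460 in control and 818, 995 and 651 in knockdown arrays. Only the lowest knockdown array reached the range of the controls, and the difference was 0.45 (95% interval 0.07 to 0.84, adjusted p = 0.230). Its second probe set gave 0.58, with 190 ± 36.5 against 309 ± 28.3. Hspd1 read 634, 890 and 516 in control and 735, 757 and 868 in knockdown arrays. Its groups overlapped and its difference was 0.18 (95% interval -0.20 to 0.56, adjusted p = 0.723). Neither gene passed.

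Hspa9 is mortalin, the mitochondrial HSP70 that pulls proteins in through the inner membrane. It read 660, 570 and 621 against 591, 581 and 444. The lowest reading was on knockdown array 3, and the difference was -0.28 (adjusted p = 0.492). Dnaja3, the mitochondrial J protein Tid1, had a difference of 0.26 (adjusted p = 0.465). Dnajc15, a J protein of the import motor, had one of -0.11, which was 0.26 among arrays 1 and 2 and -0.86 between the arrays numbered 3. Of the 8 mitochondrial members measured, 0 passed and 1, Hspe1, had an unadjusted p under 0.05, with 5 positive differences and a median of 0.22.

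In the ER group, 0 of 8 members passed by the probe set that represents each gene, and 0 had an unadjusted p under 0.05. Their median difference was -0.04, with 4 positive and 4 negative. Hspa5 is BiP, the HSP70 of the ER lumen and a standard readout of the unfolded protein response. It read 3183, 2886 and 2089 in the controls and 2421, 2470 and 1413 in the knockdown arrays. The groups overlapped, with array 3 the lowest of each group, and the difference was -0.46 (95% interval -0.96 to 0.05, adjusted p = 0.379). All 3 Hspa5 probe sets were negative, at -0.46, -0.34 and -0.49. Of the other members with an ER stress element, Hsp90b1 had a difference of -0.13 and Dnajc3, the J protein P58IPK, of 0.0049. Dnajb9 (ERdj4), a target of the XBP1 branch, had one of -0.08, and Dnajb11 (ERdj3), a cofactor of BiP, one of -0.20. Dnajc1 (ERdj1), a membrane J protein, had one of 0.23, but its 6 probe sets ran from -0.41 to 0.23. Hspa13, a microsomal HSP70 relative, had one of 0.02, and its 4 probe sets ran from -0.52 to 0.13.

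**Figure D4:**
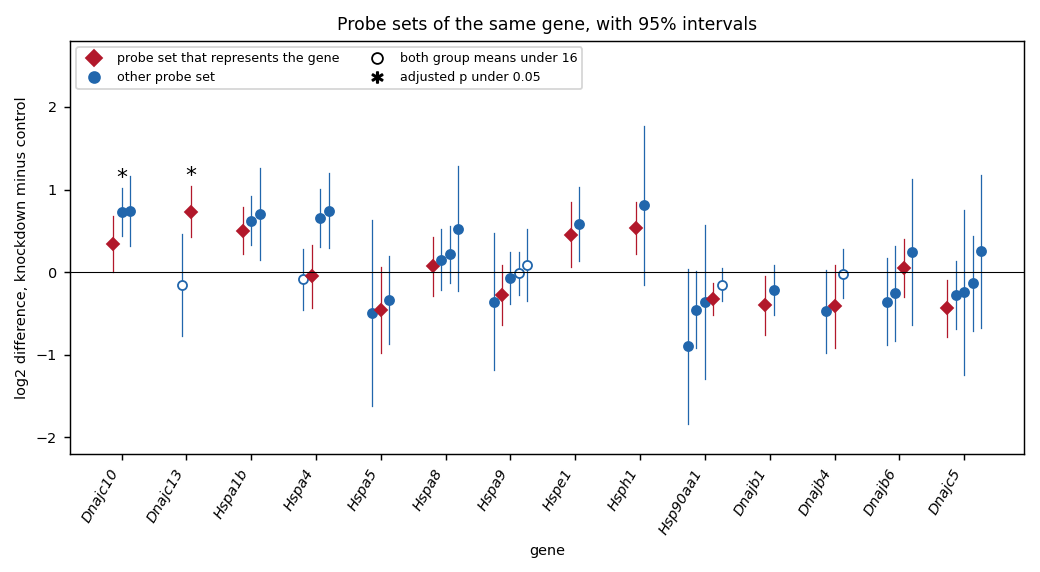
Log2 difference with its 95% interval (y axis) for each probe set of 14 chaperone genes (x axis); red diamonds mark the probe set that represents the gene, open circles probe sets with both means under 16, and stars an adjusted p under 0.05 over all probe sets. The 5 probe sets of Hsp90aa1 are all below 0, while those of Hspa4 lie between -0.09 and 0.74.

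Probe sets of a gene did not always give the same sign. Among 33 members with at least 2 probe sets of a mean of 16 or more, 19 had 1 sign throughout and 14 had both. The range within a gene had a median of 0.29 and was widest for Hspa4, at 0.80. No member had 2 probe sets with differences over 0.5 in opposite directions.

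All 4 DNAJA genes, the J proteins closest to bacterial DnaJ, had positive differences, with a median of 0.27, and 0 of 4 passed. One of them, Dnaja4, had an unadjusted p under 0.05. It read 34.4, 31.3 and 27.4 in the controls and 47.0, 48.3 and 39.4 in the knockdown arrays, without overlap. Its difference was 0.33 (95% interval 0.08 to 0.59, adjusted p = 0.175), and its other 2 probe sets gave 0.53 and 0.23. Dnaja2 had a difference of 0.28 (adjusted p = 0.446), and its 4 probe sets ran from 0.02 to 0.57. Dnaja1 had one of 0.08 (adjusted p = 0.849), and in the 4 arrays of higher spike signal it was -0.0042.

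In the DNAJB family 0 of 13 genes passed and 2 had an unadjusted p under 0.05, against 15.8% of all genes. The median difference was -0.05. Dnajb5 was one of the 2. It read 22.8, 19.4 and 14.0 in control and 36.7, 28.7 and 28.2 in knockdown arrays, which is close to the offset. The difference was 0.44 (95% interval 0.13 to 0.75, adjusted p = 0.144). Dnajb4, a J protein of the same subgroup as Dnajb1, had a difference of -0.42 (adjusted p = 0.422), which was -0.64 among arrays 1 and 2 and 0.04 between the arrays numbered 3. Dnajb6 suppresses protein aggregation, and mutations in the human gene cause a limb-girdle muscular dystrophy. It read 587, 797 and 484 in control and 612, 751 and 630 in knockdown arrays. The knockdown values lay within the control range, and the difference was 0.05 (95% interval -0.31 to 0.41, adjusted p = 0.943). Its sign turned when the mean of its probe sets was used (-0.08) and without control array 1, control array 3 or knockdown array 2 (-0.04 to -0.01).

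Of the 27 DNAJC genes 1 passed, Dnajc13, and 2 had an unadjusted p under 0.05, against 15.8% of all genes. The median was 0.03, with 16 positive and 11 negative differences. Dnajc5, the cysteine string protein that attends vesicle fusion, was the other gene of the 2. It read 326, 380 and 274 in control and 315, 214 and 232 in knockdown arrays, with a difference of -0.44 (95% interval -0.78 to -0.09, adjusted p = 0.194). Of its 5 probe sets 1 was positive, at 0.25. Dnajc9, a histone chaperone, read 72.1, 74.1 and 79.6 in control and 64.3, 68.9 and 62.3 in knockdown arrays, without overlap and with a difference of -0.25 (adjusted p = 0.417). Dnajc28 had a difference of 0.32 (adjusted p = 0.356) with both means under 16. Dnajc2, which binds ribosomes, had one of 0.10, Dnajc8, a splicing-associated J protein, one of 0.0090 and Dnajc21, which acts in ribosome assembly, one of -0.02. Dnajc7, with domains that also bind HSP90, had one of -0.16. Dnajc17 varied most within its family, from 79.1 to 328 among the controls, and its interval ran from -1.25 to 1.34.

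**Figure D5:**
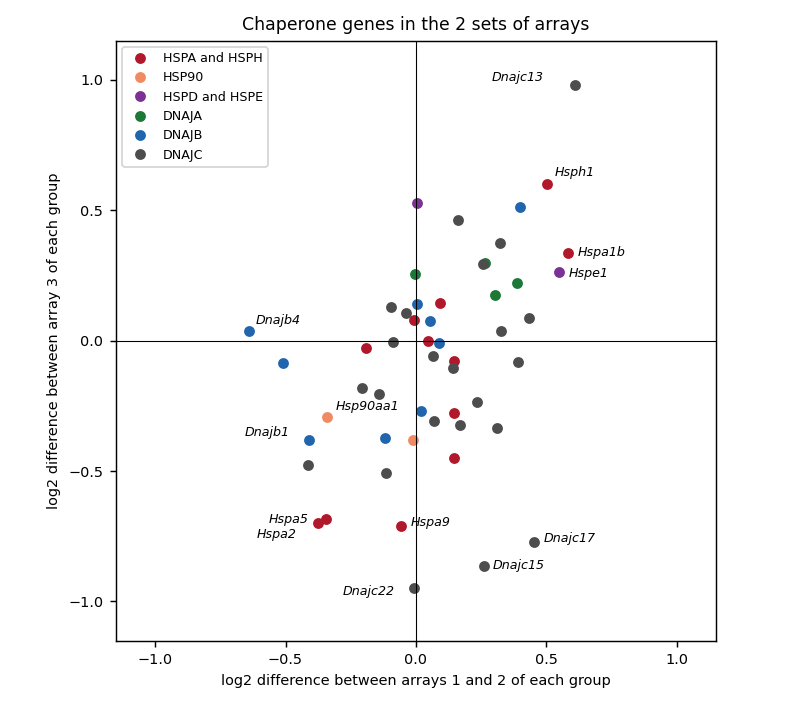
Log2 difference, knockdown minus control, of the 52 chaperone genes with a mean of at least 16 in at least 1 group, in arrays 1 and 2 (x axis, higher spike signal) and between the arrays numbered 3 (y axis, lower spike signal). Dnajc13 is at 0.61 and 0.98, and Dnajb4 and Dnajc15 have opposite signs in the 2 sets.

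Within the 2 sets of arrays that differ in spike signal, 38 of the 62 members had the same sign (61.3%), against 59.0% of all genes. The median of the members was 0.06 in arrays 1 and 2 and -0.02 between the arrays numbered 3. With 1 array per group the latter allows no test, and its control array is the one with the low 5′ to 3′ ratios. Dnajc13, Hspa1b, Hsph1, Hspe1 and Dnajb5 were positive in both sets. Hsp90aa1, Hspa2, Hspa5, Hspa9, Dnajb1 and Dnajc5 were negative in both.

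Genes that work with the chaperones were taken from 6 lists, of which 81 genes were measured. Of these 1 rose and 0 fell (1.23%, against 5.16% of all genes), and 9 of the 81 had an unadjusted p under 0.05, against 15.8% of all genes. Both shares are below the background. The gene that rose was Unc45b, a chaperone of muscle that brings HSP90 to the myosin head. It read 4.49, 4.85 and 2.04 on the control arrays and 48.9, 59.6 and 60.1 on the knockdown arrays, far apart, with controls in the range of background. The log2 difference was 1.84 with the offset of 16 (SE 0.11, adjusted p = 0.00046), 3.60 with an offset of 1 and 0.81 with one of 64. Its size therefore depends on the offset, and no fold is given. The markers of differentiated muscle rose on the same 3 arrays, and the part of muscle differentiation in the Unc45b value was not tested.

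The other 17 HSP90 cochaperones measured did not pass, and 5 of the 18 had an unadjusted p under 0.05, against 15.8% of all genes. Fkbp4, a peptidyl-prolyl isomerase of steroid receptor complexes, had a difference of 0.38 (adjusted p = 0.533). Stip1, which joins HSP70 to HSP90, had one of 0.13 (adjusted p = 0.902), but -0.25 in arrays 1 and 2 of each group and 0.87 between the arrays numbered 3. Of 12 nucleotide exchange and release factors 0 passed and 0 had an unadjusted p under 0.05. Bag3, the exchange factor that sends damaged filamin to autophagy in muscle, had a difference of 0.26 (adjusted p = 0.735), with -0.05 in arrays 1 and 2 and 0.89 between the arrays numbered 3. Of the 3 heat shock factors measured 0 passed and 0 had an unadjusted p under 0.05, and all 3 had both means under 16. Among them Hsf2 had a difference of 0.12. Hsf1, the main heat shock factor, was not analysed here.

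The cytosolic chaperonin ring and prefoldin, which fold actin and tubulin, had a median difference of 0.04 over 15 genes, of which 0 passed and 0 had an unadjusted p under 0.05. Among 25 genes of the ER unfolded protein response 0 passed and 3 had an unadjusted p under 0.05, against 15.8% of all genes. The 3 were Syvn1 (-0.62, adjusted p = 0.0751) and Sdf2l1 (-1.23, 0.218), which were lower, and Ern1 (0.65, 0.192), which was higher. Over the 25 genes there were 8 positive and 17 negative differences, with a median of -0.06. Ddit3, the stress transcription factor CHOP, read 456, 298 and 421 in control and 354, 304 and 215 in knockdown arrays. Its groups overlapped and its difference was -0.50 (adjusted p = 0.420), which was -0.15 in arrays 1 and 2 and -1.18 between the arrays numbered 3. Xbp1, a transcription factor that is spliced on ER stress, had a difference of -0.03, and the array was not used to tell its spliced form. Hyou1, an HSP110 relative of the ER, had one of -0.08. The signs of Xbp1 and Hyou1 turned under several settings, without normalization among them. Of 11 mitochondrial proteases, import and chaperone partners 0 passed and 1 had an unadjusted p under 0.05, with a median of -0.09.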

How the data were processed

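Total RNA was extracted with Trizol and 8 µg was labelled with biotin for Affymetrix arrays, per the labels' protocols. The authors deposited a linear intensity for each probe set on each array. The submitters' processing notes list GCOS and PLIER; background correction and normalization are not given in the sources used here. After 64 control probe sets were left out, log2(intensity + 16) was quantile normalized. Knockdown was compared with control over all genes and over all probe sets with limma 3.58.1 (R 4.3.3), lmFit and eBayes with Benjamini-Hochberg adjustment, at a threshold of 0.05. A gene is represented by its probe set of highest mean. Intensities printed are as deposited, so their ratio need not equal the normalized difference. The number of arrays limits the precision.

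Genes were named from GEO's platform annotation. The genes, lists and tests were chosen with earlier results of these data known. Named were a fixed panel, every passing member or partner, the 3 members not passing with the largest difference in each family, and members with opposed probe sets. Other members are named for their role or were picked with their values in view, and Syvn1, Sdf2l1 and Ern1 for their unadjusted p. The fit was tested on simulated data.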

Additional observations from a re-analysis of the deposited data

How the results depend on the processing

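The 18 alternative settings included 6 that leave out 1 array. Counts of member genes passing (1 in the report, 1 higher and 0 lower) became 0 with an offset of 1, with the replicate block and in the 4 arrays of higher spike signal. They became 2 (1 lower, Hsp90aa1) with an offset of 64, 2 (both higher, Dnajc10 and Hspa1b) with the mean of a gene's probe sets, and 4 (2 higher and 2 lower) with array weights. Leaving out 1 array gave 0 to 1. For Dnajc13 the adjusted p was 0.116 with an offset of 1, 0.0555 with the replicate block, 0.148 in the 4 arrays and 0.563 with the mean of probe sets. Leaving out control array 1 gave 0.102, control array 3 0.055, and knockdown arrays 1, 2 and 3 gave 0.093, 0.0951 and 0.0992. Over all 18 settings it was 0.00511 to 0.563. Unc45b passed in all 18 (2.9e-05 to 0.0153).

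Member probe sets passing (2 in the report, both higher) numbered 0 without normalization, with an offset of 1 or 64, with the trend, with the replicate block and in the 4 arrays. They numbered 1 (Dnajc10) with median scaling and with the filter on low values, 1 with spike level as a block, which was a probe set of Hspa4 and neither of the 2 reported, and 6 (5 higher and 1 lower) with array weights. Leaving out 1 array gave 0 to 2, and Dnajc10 passed in none of these 6 fits.

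All genes passing, 938, became 1615 with array weights and 358 in the 4 arrays, and leaving out 1 array gave 444 to 815, namely 544 when control array 1 and 444, 559 and 558 when knockdown array 1, 2 or 3 was dropped. The median of the members, 0.03, was 0.10 without normalization, 0.12 with median scaling, -0.0086 with array weights, 0.061 in the 4 arrays and -0.027 to 0.066 when 1 array was left out. The median of all genes was 0.01 and 0.03 in the first 2.

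Signs turned for 7 of the named genes, none of which passed. Over the fits without 1 array, Hspa8 ran from -0.032 to 0.18, Dnajb6 from -0.042 to 0.18, Stip1 from -0.15 (control array 3) to 0.30, Hyou1 from -0.24 to 0.088 (knockdown array 3) and Xbp1 from -0.18 to 0.11. In the 4 arrays Dnaja1 was -0.0042, Bag3 -0.055, Stip1 -0.25, Hyou1 0.16 and Xbp1 0.0091. With array weights Stip1 was -0.0051 and Hyou1 0.18. Without normalization Hyou1 was 0.0043 and Xbp1 0.015, and with median scaling 0.023 and 0.033. With the mean of probe sets Dnajb6 was -0.080 and Xbp1 0.23. The causes were not tested.

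The labels number the replicates 1 to 3 in both groups. Deviations from the group means of same-numbered arrays correlated at 0.342, 0.0075 and 0.116 across genes, and control array 2 correlated best with knockdown array 3. The 2 arrays numbered 3 also shared the low spike signal, and these values do not settle whether the numbers mark pairs. The main fit did not pair the samples, and the replicate block, in which no member gene passed, stands only as the setting above. With the 3 arrays per group a 2-fold difference could be missed in members whose interval reaches beyond 1. In the 10 members with both group means under 16, the offset of 16 holds the differences down. Their intervals lay within 1, and a 2-fold difference in intensity could be missed there too.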
